A study of Mus musculus with 24 samples.

Results

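Lin-CD29hiCD24+ cells of the normal mouse mammary gland were compared with the Lin-CD29+CD24+ cells of the same glands. The comparison rests on 6 of the 24 arrays of the series, chosen by their titles: 3 arrays of each population, 1 from each of gland pools F, G and H. The 2 titles that carry no pool letter were taken as pool H, by the rule used to choose the arrays. All glands came from C57BL6/J mice with both Apc alleles intact (Apc+/+), kept under specific-pathogen-free conditions, and neither their age nor the number of mice in a pool is known from the sources used here. Each pool was isolated on its own. The p-values below rest on the spread within groups over all 24 arrays, that is between pools of animals and between tumours. From each pool the lineage-negative fraction (Lin-) and both gated populations were sorted by flow cytometry as 10000 cells each. RNA was amplified in 2 labelling cycles and hybridised to Affymetrix arrays. The remaining arrays are the 3 normal Lin- arrays and 15 arrays of the same 3 populations from 5 adenocarcinomas of Apc+/1572T mice, and all 24 entered the fit. The design text gives the purpose: to set the gate in which adult mammary stem cells are found against a more differentiated gate. Here the populations are called CD29hi and CD29+.

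The mammary duct is a bilayer. An inner layer of luminal cells, some of which sense oestrogen and progesterone and some of which make milk, lies on an outer basal layer of contractile myoepithelial cells, which rest on the basement membrane and squeeze the milk out when oxytocin reaches them. CD29 is the integrin beta 1 chain, a receptor for basement membrane, and CD24 is a small glycoprotein anchored in the surface of epithelial cells. A gate on high CD29 is known to collect basal cells, among which cells that can regrow a gland on transplantation are rare, while the gate with less CD29 holds luminal cells.

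Values are log2 signals as deposited, and triples of values are given in the order of pools F, G and H, with the CD29hi triple before the CD29+ triple. A difference is CD29hi minus CD29+ in log2 units with its standard error after ±, so that 1 unit is a 2-fold difference. A gene was called higher or lower where its limma p, adjusted by Benjamini-Hochberg over all 13485 genes tested, was under 0.05. Values at or under 2.83, set as the limit that 40% of all values do not exceed, are called the low band. Little signal is taken to be left there after background removal, and a difference that starts in this low band is compressed. Signals of different genes are not compared as amounts of RNA, since each probe set has its own brightness. The genes described come from 26 lists of 553 distinct genes, of which 501 passed a filter on low values and were tested, from 9 lists of markers of other cells and from the largest differences. The standard errors pool the spread of all 24 arrays, so that a gene that varies among tumours has a wide error here.

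The CD29hi array of pool F stood apart. Over the genes tested it correlated with the CD29hi arrays of pools G and H at 0.964 and 0.967, while those 2 correlated at 0.983 and the CD29+ arrays with each other at 0.990 to 0.991. It lay over 4 log2 units above both other CD29hi arrays for 47 genes such as Lyz2 and Csf1r, of which 4 were called higher in CD29hi, and over 4 units under both for 13 genes, of which 12 were called lower in CD29hi. The mean of 11 macrophage markers was 8.58 in this array, 3.05 and 3.23 in the other CD29hi arrays and 3.01 to 3.07 in the CD29+ arrays. The difference between the 3′ and 5′ probe sets of actin, which grows as RNA is shortened, was 2.89, 2.49 and 2.20 in CD29hi and 1.59, 1.83 and 1.41 in CD29+, while that of Gapdh was 2.10 ± 0.29 and 2.24 ± 0.03 (SD, n = 3). The part of these in the results was not tested beyond the values given beside each result. Values without array F are given beside many of the results that rest on it. Over the 605 genes of the lists and rankings 40 calls were lost without it, and not all of these are given singly.

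Of 13485 genes tested, 2871 (21.3%) were higher and 3410 (25.3%) were lower in CD29hi, and 6281 (46.6%) differed in either direction. The counts of each list below are to be read beside these shares. Differences of at least 16-fold were more frequent on the higher side, with 521 genes against 169. The median over all genes was -0.03. Groups of 3 did not overlap for 26.4% of the genes on the higher side and 31.8% on the lower side. In bulk samples, fewer cells of a type and less RNA per cell cannot be told apart. At the other end, the 95% confidence interval of the difference lay within 0.5 units on either side of 0 for 1884 genes. Among those of highest signal were ribosomal protein genes, such as Rps20 at 15.47, 15.42 and 15.43 in CD29hi and 15.48, 15.51 and 15.40 in CD29+ and Rplp0 at 15.03, 15.16 and 15.11 against 15.18, 15.09 and 15.02. Their groups overlapped, and the differences were -0.03 ± 0.06 for Rps20 and 0.00 ± 0.09 for Rplp0. The translation factor gene Eef1a1 differed by -0.06 ± 0.10 and Rpl13a by -0.01 ± 0.10.

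The genes of the gate's own antigens did not move alike. Itgb1, the gene of CD29, read 9.83, 10.42 and 10.84 in CD29hi and 9.50, 9.11 and 9.78 in CD29+. Every CD29hi array was above every CD29+ array, but the difference of 0.90 ± 0.38 was not called (adjusted p = 0.059). It was called with the pool as a block (adjusted p = 0.015), without array F at 1.16 (adjusted p = 0.030) and with the actin signal as covariate at 1.88 (adjusted p = 2.3e-05). Cd24a, the gene of CD24, read 14.29, 14.42 and 14.39 in CD29hi and 15.47, 15.41 and 15.41 in CD29+, and was lower at -1.07 ± 0.19 (adjusted p = 0.00010). Both populations had been gated as CD24 positive. The epithelial adhesion gene Epcam was high in all 6 arrays, at 12.64, 13.40 and 13.38 against 14.42, 14.37 and 14.54, and lower in CD29hi at -1.31 ± 0.25 (adjusted p = 0.00018).

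Krt5, Krt14 and Trp63, which define basal cells, were over 9 log2 units higher in every CD29hi array than in any CD29+ array. Of 6 basal keratin genes, which code the filaments that stiffen basal cells, 5 were higher and 1 was lower, where 21.3% and 25.3% of all genes tested were, and the median difference was 7.27. Krt5 read 12.56, 12.83 and 13.21 in CD29hi and 3.15, 3.06 and 2.50 in CD29+. The CD29hi arrays lay close together and far above, and the difference was 9.96 ± 0.51 (adjusted p = 3.1e-12). Its partner Krt14 read 14.35, 14.41 and 14.28 against 4.20, 3.99 and 3.72, a difference of 10.38 ± 0.46 (adjusted p = 3.2e-13). Krt17 differed by 10.73 ± 0.59, Krt15 by 4.57 ± 0.97 and Krt16 by 2.01 ± 0.37. Krt6a went the other way. It read 7.80, 10.94 and 10.32 in CD29hi and 14.25, 13.77 and 13.55 in CD29+, with array F the lowest, and was lower at -4.17 ± 0.45 (adjusted p = 2.2e-07).

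The contractile list holds the genes of smooth muscle type contraction that myoepithelial cells share with vessel walls. Of 16 tested members 15 were higher and 0 lower, with a median of 7.82 against -0.03 over all genes. Smooth muscle actin, Acta2, read 15.15, 15.08 and 15.08 in CD29hi and 6.91, 7.96 and 7.02 in CD29+, a difference of 7.80 ± 0.93 (adjusted p = 7.8e-07). The myosin heavy chain gene Myh11 read 12.59, 12.48 and 13.04 against 3.43, 3.11 and 3.29, and differed by 9.43 ± 0.95 (adjusted p = 7.3e-08). All CD29+ arrays of Myl9, the regulatory light chain, lay in the low band at 1.49, 1.65 and 1.504, against 12.61, 12.54 and 12.82 in CD29hi, a difference of 11.11 ± 1.07 (adjusted p = 4.0e-08). The kinase of that light chain, Mylk, differed by 9.07 ± 0.96, the calponin gene Cnn1 by 10.05 ± 0.86, the caldesmon gene Cald1 by 6.94 ± 0.44 and the tropomyosin genes Tpm2 and Tpm1 by 7.88 ± 0.47 and 2.22 ± 0.32. The oxytocin receptor gene Oxtr read 11.48, 10.68 and 11.89 in CD29hi and 2.61, 2.55 and 2.55 in CD29+, where all 3 arrays lay in the low band, and differed by 8.78 ± 0.80 (adjusted p = 1.9e-08). Srf, the transcription factor known to drive this gene set in smooth muscle, read 11.29, 11.52 and 11.35 against 11.44, 11.26 and 11.75. Its groups overlapped and its difference was -0.10 ± 0.23 (adjusted p = 0.81). Without array F the list still had 15 members higher, with a median of 7.86. Des, the muscle intermediate filament gene, and Myocd, a coactivator of Srf, did not pass the filter on low values.

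**Figure D1:**
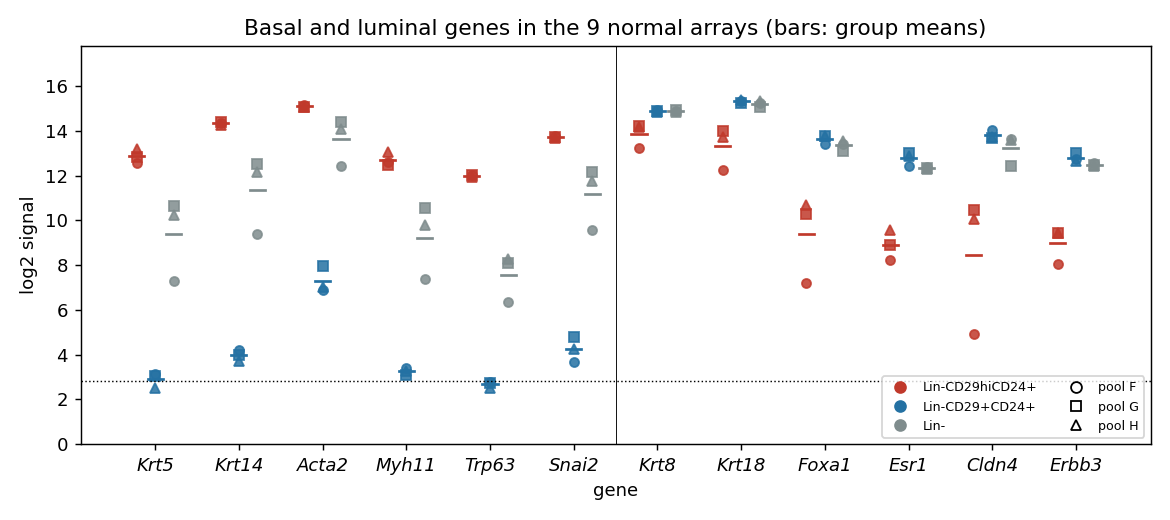
Log2 signal (y axis) of 12 genes (x axis) in the 9 normal arrays, with colour for the population, marker shape for the pool, short bars for group means and a dotted line at the limit of the low band. The 6 basal genes on the left lie above 11 in all CD29hi arrays and below 8 in all CD29+ arrays, while Krt8 on the right differs by -1.02 with array F below the others.

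Srf binds a motif of 10 bases called the CArG box. The 250 bases before the start of Myl9, from RefSeq (GRCm38.p6, plus strand, chr2:156775214-156775463), are printed to show its match, in capitals:
Myl9: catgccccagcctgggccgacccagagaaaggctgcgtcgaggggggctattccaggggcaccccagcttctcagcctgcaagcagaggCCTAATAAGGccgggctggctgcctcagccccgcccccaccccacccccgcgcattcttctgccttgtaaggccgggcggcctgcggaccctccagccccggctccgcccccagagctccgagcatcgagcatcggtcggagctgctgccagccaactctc
Promoter windows, from 250 bases before to 50 after the first listed start, were matched by gene symbol for 13 of the 16 contractile genes. Only the strict pattern CCWWWWWWGG, where W is A or T, was counted. Near matches with another letter were left out, such as ccctatatgg in the window of Acta2. A strict CArG box on either strand stood in 2 of the 13 (15.4%), Myl9 and Srf itself, against 425 of all 27025 promoters (1.57%). Among matched genes called higher it stood in 41 of 2270 (1.81%), and among those called lower in 32 of 2812 (1.14%). A match describes letters in this window and is not a measured site.

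Basal cells hold on to the basement membrane through integrins and hemidesmosomes, and they also build part of that membrane. In this list of 24 tested genes 18 were higher and 1 lower, with a median of 3.51. The hemidesmosome collagen gene Col17a1 read 12.80, 12.74 and 12.90 in CD29hi and 2.38, 2.52 and 2.45 in CD29+, with all CD29+ arrays in the low band, a difference of 10.36 ± 0.49 (adjusted p = 8.2e-13). Among laminin genes Lama3 differed by 7.47 ± 0.55, Lamb3 by 4.68 ± 0.34, Lamb1 by 7.30 ± 0.48 and Lama1 by 5.71 ± 0.95, whereas Lama5 was not called at -0.56 ± 0.32 (adjusted p = 0.17). The type IV collagen pair Col4a1 and Col4a2 differed by 8.16 ± 0.64 and 8.99 ± 0.68. Among integrin chains Itga9 read 8.67, 7.92 and 7.88 against 2.79, 2.86 and 3.03, a difference of 5.26 ± 0.68 (adjusted p = 2.2e-06). Itga1 differed by 4.79 ± 0.41 and Itga3 by 1.67 ± 0.28. Itga6, whose product marks basal cells in other sorting schemes, read 13.02, 13.13 and 13.32 against 12.64, 12.73 and 12.59, a difference of 0.51 ± 0.13 (adjusted p = 0.0031), which was 0.39 (adjusted p = 0.072) without pool H. Itgb4, its hemidesmosome partner, overlapped between gates at 6.63, 7.06 and 7.32 against 7.04, 6.01 and 6.54 and was not called (adjusted p = 0.34) except with the actin signal as covariate, at 1.25 (adjusted p = 0.0086). Plec, which links hemidesmosomes to keratin, was the member called lower, at -1.07 ± 0.22 (adjusted p = 0.00045).

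Collagen genes as a family were higher: 20 of 25 tested were called higher and 2 lower, with a median of 4.61. Col14a1 differed by 9.90 ± 1.30 (adjusted p = 2.7e-06). Col5a2 read 12.08, 11.66 and 12.27 in CD29hi and 2.50, 2.70 and 2.65 in CD29+, with all CD29+ arrays in the low band, and differed by 9.39 ± 0.56 (adjusted p = 3.6e-11). Col7a1, the anchoring fibril collagen, differed by 6.18 ± 0.47 and Col18a1 by 7.32 ± 0.57. Col1a1 and Col3a1, best known from fibroblasts, were highest in Lin-. Col1a1 read 3.29, 3.03 and 3.26 in CD29hi, 3.02, 3.09 and 2.99 in CD29+ and 7.82, 7.17 and 6.31 in Lin-, so that both gates lay near the low band while Lin- did not. Col3a1 read 9.47, 7.29 and 10.33 in CD29hi, 3.23, 3.27 and 2.66 in CD29+ and 13.94, 12.37 and 12.89 in Lin-, and was called higher by 5.97 ± 1.62 (adjusted p = 0.0044). Col8a1 at -3.54 ± 0.53 and Col6a3 at -4.38 ± 1.18 were the 2 called lower. The call of Col6a3 was lost without pool F, at -3.74 (adjusted p = 0.060), and with the actin covariate, at -2.97 (adjusted p = 0.10), and that of Col3a1 without pool H, at 5.13 (adjusted p = 0.064). Without array F 17 collagens were called higher, and those lost were Col15a1 at 1.62 (adjusted p = 0.054), Col23a1 at 1.44 (adjusted p = 0.061) and Col27a1 at 1.12 (adjusted p = 0.077).

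Cell-to-cell adhesion genes moved in both directions. Of 19 cadherin, desmosome and gap junction genes 9 were higher and 3 lower, or 6 lower with the pool as a block. Cdh1 (E-cadherin) read 12.89, 13.62 and 13.57 in CD29hi and 14.11, 14.27 and 14.06 in CD29+ and was lower at -0.78 ± 0.16 (adjusted p = 0.00051), while Cdh2 (N-cadherin) read 8.32, 7.43 and 7.81 against 3.19, 3.23 and 3.36 and was higher by 4.59 ± 0.47 (adjusted p = 9.2e-08). Cdh3 (P-cadherin), a basal cadherin, was higher by 1.64 ± 0.37. Among desmosome genes Pkp1 was higher by 3.34 ± 0.26 and Dsc3 by 2.82 ± 0.49, while Dsc2 was lower at -2.56 ± 0.53. Pkp2 was lower with all arrays, with a difference of -3.73 ± 1.09, and not called without array F, at -2.94 (adjusted p = 0.053), or with the actin covariate, at -2.97 (adjusted p = 0.091). The gap junction gene Gja1 read 14.93, 14.77 and 14.87 against 11.55, 12.09 and 11.29, and was higher by 3.21 ± 0.16 (adjusted p = 3.1e-12).

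Tight junctions seal the apical side of luminal cells, and polarity proteins place them there. Of 23 tested genes of tight junctions, polarity and apical surface 19 were lower and 1 higher, with a median of -2.91. The claudin gene Cldn4 read 4.91, 10.46 and 10.06 in CD29hi and 14.03, 13.69 and 13.74 in CD29+, with array F far under the other 2, a difference of -5.34 ± 1.08 (adjusted p = 0.00034). Without array F it was -3.56 (adjusted p = 0.0020). Ocln (occludin) read 5.36, 8.23 and 7.34 against 11.06, 11.33 and 11.46, and was lower at -4.31 ± 0.71 (adjusted p = 4.0e-05). The junction scaffold gene Tjp3 read 3.002, 4.89 and 3.78 against 7.64, 7.41 and 7.56, a difference of -3.65 ± 0.55. Rab25, a GTPase of apical recycling, differed by -4.23 ± 0.48, the polarity gene Crb3 by -3.21 ± 0.52, and the apical membrane gene Prom2 by -2.91 ± 0.35. Tjp1 (ZO-1), a scaffold that is also used outside tight junctions, overlapped at 13.29, 13.15 and 13.34 against 13.30, 13.54 and 13.33 and was not called (adjusted p = 0.66), nor was F11r (-0.08 ± 0.17). Cgnl1 at -0.90 ± 0.53 was not called (adjusted p = 0.18) but was with the pool as a block (adjusted p = 0.0050). Pard3, the member called higher, differed by only 0.54 ± 0.21 (adjusted p = 0.041). Its call was lost after quantile normalisation, at 0.44 (adjusted p = 0.12), and without the CD29hi array of pool G or any 1 CD29+ array (adjusted p up to 0.18). Of the 19 lower calls 18 held without array F, the exception being Pard6b at -0.86 (adjusted p = 0.063). Without all arrays of pool F 14 genes of the list were called lower, and with the actin signal as covariate 17 were.

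The E-box with the letters CAGGTG, which the other strand shows as CACCTG, is known as the sequence that Snail family repressors, Snai2 among them, recognise in epithelial genes. The 250 bases before the start of 4 of the junction genes, from RefSeq (GRCm38.p6), are printed to show where these letters stand, in capitals. They are Crb3 (plus strand, chr17:57061951-57062200), Epcam (plus strand, chr17:87635729-87635978), Rab25 (minus strand, chr3:88548280-88548529) and Cldn4 (minus strand, chr5:134946935-134947184):
Crb3: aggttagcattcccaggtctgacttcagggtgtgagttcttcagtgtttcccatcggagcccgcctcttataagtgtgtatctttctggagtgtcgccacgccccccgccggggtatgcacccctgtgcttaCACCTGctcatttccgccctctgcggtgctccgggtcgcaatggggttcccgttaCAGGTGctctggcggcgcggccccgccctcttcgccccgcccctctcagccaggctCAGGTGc
Epcam: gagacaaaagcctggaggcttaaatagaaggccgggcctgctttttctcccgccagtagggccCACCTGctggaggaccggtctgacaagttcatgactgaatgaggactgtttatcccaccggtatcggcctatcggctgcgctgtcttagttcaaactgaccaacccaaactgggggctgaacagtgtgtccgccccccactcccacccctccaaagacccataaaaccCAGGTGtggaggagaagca
Rab25: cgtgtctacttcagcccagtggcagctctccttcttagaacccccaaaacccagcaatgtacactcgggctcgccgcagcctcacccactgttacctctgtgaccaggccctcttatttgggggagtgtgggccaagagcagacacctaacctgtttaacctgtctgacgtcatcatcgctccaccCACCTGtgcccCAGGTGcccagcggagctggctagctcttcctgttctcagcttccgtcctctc
Cldn4: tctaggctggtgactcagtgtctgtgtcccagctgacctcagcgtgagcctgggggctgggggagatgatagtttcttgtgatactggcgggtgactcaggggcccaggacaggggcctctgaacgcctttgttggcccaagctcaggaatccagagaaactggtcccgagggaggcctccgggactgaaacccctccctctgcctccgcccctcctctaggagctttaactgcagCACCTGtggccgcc
Crb3 holds 3 copies in this stretch, Epcam and Rab25 hold 2 and Cldn4 holds 1. In the full promoter windows the E-box stood in 10 of 18 matched junction genes (55.6%), namely Cldn3, Cldn4, Ocln, Tjp3, F11r, Marveld2, Epcam, Pard6b, Crb3 and Rab25. The E-box stood in 5413 of all 27025 promoters, in 21.2% of those of genes called lower, 15.7% of those of genes called higher and 17.4% of those not called. Among the 13 matched contractile genes it stood in 4 (30.8%), and 15 of the 16 tested members of that list were higher in CD29hi. A high share was thus not limited to a list of mostly lower genes. Of the 10 junction genes with the E-box, F11r was the member not called. A match describes letters in this window, and binding or repression by Snai2 was not tested.

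Transcription factors of the basal list were higher in 14 of 18 cases and lower in 1, with a median of 3.25. Trp63, the p63 gene on which basal identity depends, read 12.02, 12.02 and 11.94 in CD29hi and 2.77, 2.74 and 2.52 in CD29+, where all arrays lay in the low band, a difference of 9.32 ± 0.37 (adjusted p = 5.8e-14). Snai2 read 13.79, 13.72 and 13.70 against 3.67, 4.80 and 4.25, with the CD29hi arrays within 0.1 of each other, and differed by 9.49 ± 0.44 (adjusted p = 6.4e-13). Id4, an inhibitor of basic helix-loop-helix factors, read 13.23, 13.19 and 13.22 against 3.99, 3.64 and 3.61, a difference of 9.47 ± 0.56 (adjusted p = 3.1e-11). Irx4 differed by 6.33 ± 0.58, Mef2c by 5.85 ± 0.61, Tcf7l1 by 4.23 ± 0.24, Egr3 by 4.33 ± 0.32 and Sox10 by 2.72 ± 0.42. Meis1 was the member called lower, at -2.15 ± 0.39 (adjusted p = 0.00011). The calls of 2 factors depended on single arrays. Zeb1 read 7.997, 4.26 and 4.55 in CD29hi, highest in array F, and its difference of 2.70 ± 0.90 became 1.499 (adjusted p = 0.17) without that array. Bnc2 read 6.75, 4.96 and 4.17, and its 2.64 ± 0.95 became 1.91 (adjusted p = 0.15). Both calls were also lost without the CD29+ array of pool F or G (adjusted p up to 0.062). Zeb2 was not called, at 5.78, 3.52 and 3.78 against 3.34, 3.58 and 3.59.

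Of 24 luminal transcription factors 14 were lower and 3 higher, with a median of -2.11. Foxa1, the pioneer factor of oestrogen receptor sites, read 7.21, 10.28 and 10.71 in CD29hi and 13.40, 13.79 and 13.78 in CD29+, lowest in array F, a difference of -4.26 ± 0.85 (adjusted p = 0.00030). Elf5, the factor of the milk-forming lineage, read 1.87, 5.72 and 7.30 against 9.16, 8.67 and 9.41, a difference of -4.12 ± 0.94 (adjusted p = 0.0011), and -2.57 (adjusted p = 0.0089) without array F. The ETS factor Ehf read 2.86, 6.67 and 6.16 against 10.03, 9.86 and 9.12, a difference of -4.44 ± 0.64 (adjusted p = 9.1e-06). Spdef, Elf3 and Grhl1 were lower, with differences of -4.28 ± 0.44, -3.40 ± 0.57 and -3.21 ± 0.43. The signal transducer genes Stat5a and Stat5b, which act in milk gene induction, differed by -1.99 ± 0.37 and -2.23 ± 0.40. Gata3, often used as a luminal marker, read 9.98, 9.95 and 10.05 against 10.15, 9.79 and 10.16. Its groups overlapped and its difference was -0.04 ± 0.33 (adjusted p = 0.96). Grhl2 at 0.10 ± 0.30 and Klf5 at -0.18 ± 0.30 overlapped as well. Tfap2c was higher in CD29hi by 3.55 ± 0.28, at 13.49, 13.75 and 13.65 against 10.13, 9.99 and 10.13, and Cebpb, a factor of alveolar development, was higher by 2.92 ± 0.31. Without array F the list had 12 lower and 3 higher, and the calls lost were those of Esr1, given below, and of Xbp1, at -0.33 (adjusted p = 0.066). The call of Xbp1 was also lost without 4 of the other 5 arrays left out singly (adjusted p up to 0.11). Grhl3 and Tbx3 were not called, at 1.17 ± 0.53 and -0.52 ± 0.29, and were with the pool as a block (adjusted p = 0.0072 and 0.0092). Grhl3 was also called without the CD29hi array of pool H, at 1.86 (adjusted p = 0.0052).

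Hormone-sensing genes, those of luminal cells that carry the oestrogen and progesterone receptors, were lower in 8 of 11 tested cases and higher in 0, with a median of -3.95. The progesterone receptor gene Pgr read 9.23, 10.19 and 10.73 in CD29hi and 13.50, 13.29 and 13.20 in CD29+, a difference of -3.28 ± 0.65 (adjusted p = 0.00029). Esr1 read 8.25, 8.90 and 9.56 against 12.45, 13.02 and 12.88, so that the groups were apart by over 2 units, yet the difference of -3.88 ± 1.40 was close to the threshold (adjusted p = 0.028). Without array F it was -3.55 (adjusted p = 0.085), and the call was also lost without any 1 of 4 other arrays (adjusted p up to 0.067) and with the actin covariate, at -2.61 (adjusted p = 0.26). Prom1 read 7.79, 9.37 and 10.08 against 13.60, 13.39 and 13.23, a difference of -4.32 ± 0.76 (adjusted p = 7.8e-05). Cited1, a cofactor found in oestrogen-responsive cells, read 3.01, 7.87 and 7.72 against 11.07, 11.14 and 11.51, a difference of -5.04 ± 1.07 (adjusted p = 0.00058). Stc2 differed by -4.45 ± 0.79. Tnfsf11, the RANK ligand made in response to progesterone, read 2.52, 2.54 and 2.61 against 2.61, 2.67 and 4.82. It was above the low band in 1 array, CD29+ of pool H, and was not called (adjusted p = 0.58). Without array F 7 of the 8 calls held.

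Luminal keratin genes did not separate the gates as basal keratins did. Of 5 tested, 1 was higher, 1 was lower and 3 were not called. Krt8 read 13.22, 14.22 and 14.19 in CD29hi and 14.92, 14.91 and 14.86 in CD29+, a difference of -1.02 ± 1.03 (adjusted p = 0.47), and Krt18 read 12.26, 14.004 and 13.73 against 15.34, 15.26 and 15.37, a difference of -1.99 ± 0.95 (adjusted p = 0.094). Every CD29hi array was below every CD29+ array for both, and array F was lowest. Krt18 was called with the pool as a block (adjusted p = 0.011). In a fit of the 6 arrays alone, without the spread among tumours, Krt8 was called at -1.02 (adjusted p = 0.025) and Krt18 at -1.99 (adjusted p = 0.012). Krt19 read 10.19, 13.77 and 13.44 against 14.90, 14.91 and 14.83 (adjusted p = 0.21). Krt7 was lower, with a difference of -4.20 ± 1.29, and not called without array F, at -2.97 (adjusted p = 0.087), or with the actin covariate, at -3.83 (adjusted p = 0.072). Krt23 was the member that was higher, at 9.15, 9.62 and 9.70 against 4.40, 4.86 and 4.81, by 4.80 ± 0.71 (adjusted p = 1.1e-05).

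The milk and secretory list was mixed: of 17 tested genes 2 were higher and 6 lower. Over all genes tested 21.3% were higher and 25.3% lower, and the list's median of -0.13 lay near that of all genes. The casein genes Csn1s1, Csn1s2a and Csn2 and the whey gene Wap lay in or near the low band in both gates, as Csn2 at 2.01, 1.97 and 2.03 against 2.04, 2.02 and 2.05 shows. Csn3 was the casein with signal, at 9.68, 11.45 and 11.94 against 13.26, 12.97 and 12.49, and was not called (adjusted p = 0.61) except in a fit of the 6 arrays alone, at -1.89 (adjusted p = 0.040). The folate receptor gene Folr1 read 2.71, 3.53 and 2.87 against 8.88, 7.21 and 7.18, a difference of -4.73 ± 0.38 (adjusted p = 2.7e-09). The mucin gene Muc1 and Kit, a receptor of luminal progenitors, were lower, with differences of -2.91 ± 0.50 and -2.60 ± 0.66. The call of Kit was lost with the actin covariate, at -1.66 (adjusted p = 0.091), and 3 members of the list were lower in that fit. Without array F 4 members were lower. The calls lost were those of Aldh1a3, at -0.53 (adjusted p = 0.43), and Btn1a1, at -1.55 (adjusted p = 0.17). Glycam1, made in milk and in venules of lymph nodes, was higher in CD29hi, at 12.47, 11.06 and 13.001 against 2.45, 2.50 and 2.53, by 9.68 ± 2.45 (adjusted p = 0.0026). In Lin- it read 9.88, 2.78 and 13.45, high in pools F and H and in the low band in pool G. Of 17 luminal defence genes 4 were lower, Dmbt1, Cxcl15, Wfdc2 and Fcgbp, and none of the 4 calls held without array F or with the actin covariate. That count lay near the 25.3% of all genes tested that were lower. Dmbt1 read 2.97, 10.65 and 10.10 in CD29hi and 14.001, 13.77 and 13.61 in CD29+, a difference of -5.89 ± 1.98 with array F and of -3.42 (adjusted p = 0.17) without it. The protease inhibitor gene Slpi was higher, at 13.57, 13.64 and 13.12 against 6.66, 6.36 and 5.59, by 7.24 ± 0.50 (adjusted p = 3.3e-10).

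Further genes among the largest differences lay outside these lists. On the higher side, the chemokine gene Cxcl14 read 12.999, 13.30 and 13.56 in CD29hi and 3.37, 3.94 and 3.39 in CD29+, a difference of 9.72 ± 0.79 (adjusted p = 3.3e-09). Antxr1, an anthrax toxin receptor that binds collagen, read 11.90, 11.48 and 12.43 against 2.25, 2.25 and 2.28, a difference of 9.67 ± 0.34 (adjusted p = 7.4e-15). The formin Fhod3, which assembles actin in muscle, differed by 10.05 ± 0.72, the proteoglycan Fmod by 9.95 ± 1.23 and Moxd1 by 9.59 ± 0.49, all 3 from means in the low band. Among the lowest, Dnaic1, a dynein chain of motile cilia, read 1.99, 3.24 and 3.63 in CD29hi and 8.51, 7.81 and 8.46 in CD29+, a difference of -5.30 ± 0.30 (adjusted p = 1.2e-11). The mechanosensitive channel gene Piezo2 read 2.51, 3.03 and 5.74 against 9.30, 9.60 and 9.20, a difference of -5.61 ± 0.82 (adjusted p = 9.7e-06). The iodide transporter gene Slc5a5 read 3.48, 8.06 and 8.43 against 12.66, 11.53 and 11.94, with array F the lowest, a difference of -5.38 ± 1.30 (adjusted p = 0.0018), and -3.80 (adjusted p = 0.020) without array F. Its call was lost without all arrays of pool F, at -3.49 (adjusted p = 0.068), and with the actin covariate, at -3.96 (adjusted p = 0.050). Syn2 differed by -5.60 ± 0.66, Dkkl1 by -5.49 ± 0.61 and Slc7a4, a gene of the cationic amino acid transporter family, by -5.35 ± 0.50 from a CD29hi mean in the low band. The difference of Olfm4, the lowest of all, was -6.60 ± 1.66, and its call was lost with the actin covariate, at -5.07 (adjusted p = 0.053).

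**Figure D2:**
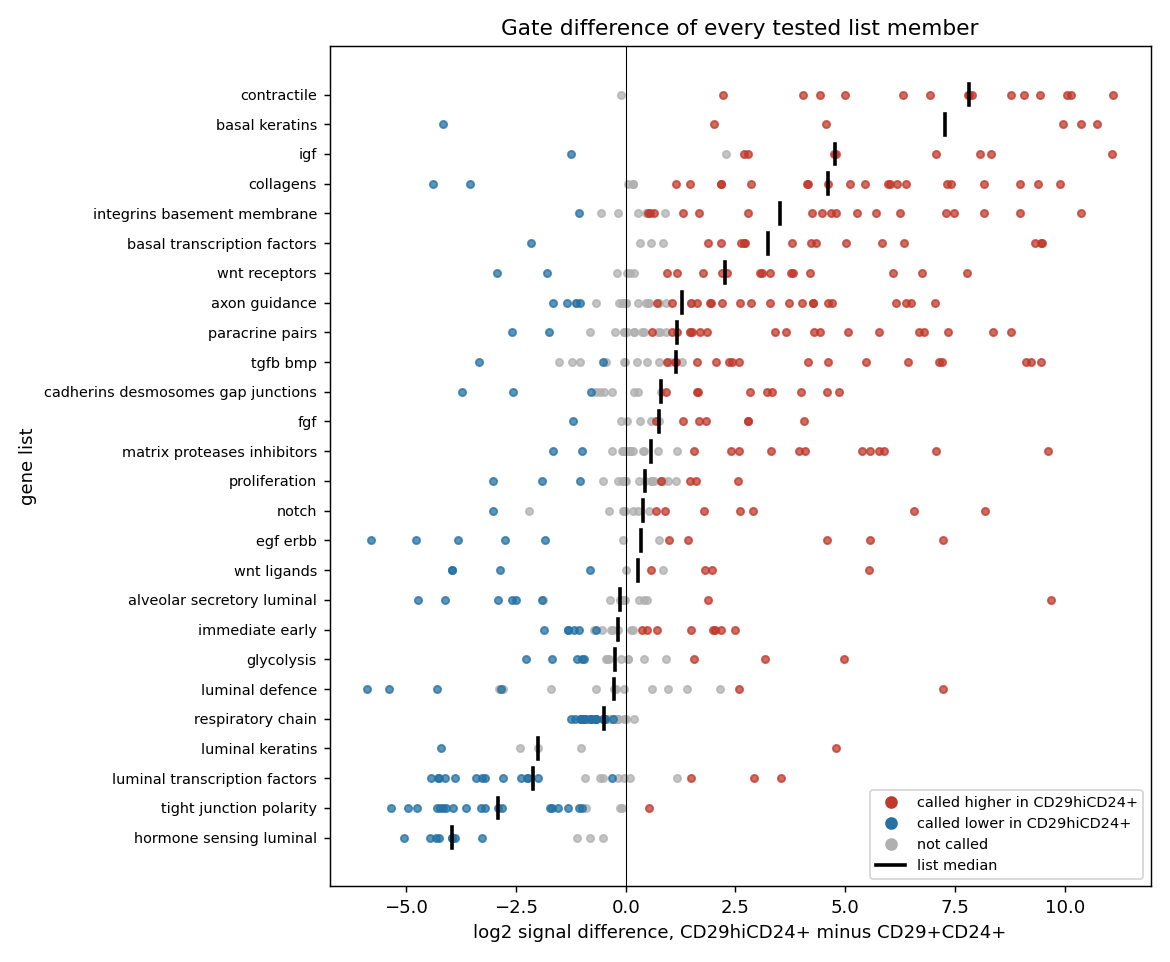
Log2 difference between CD29hi and CD29+ (x axis) of every tested member of the 26 lists other than markers of other cells (y axis), coloured by call, with a bar at each list's median. Contractile and basal keratin genes lie farthest to the right, with medians of 7.82 and 7.27, and hormone-sensing and tight junction genes farthest to the left, with -3.95 and -2.91.

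Within several pathways some ligand or receptor genes were higher in CD29hi and others were lower. Wnt proteins act on Frizzled receptors, and R-spondins raise the response through Lgr receptors. Of 15 Wnt and R-spondin genes listed 10 were tested. Of these 4 were higher and 4 lower, where 21.3% and 25.3% of all genes tested were. Wnt4, which acts downstream of progesterone, read 5.93, 7.81 and 7.56 in CD29hi and 10.999, 10.96 and 11.21 in CD29+, a difference of -3.95 ± 0.56 (adjusted p = 6.8e-06). Wnt7b and Wnt5a were lower, with differences of -3.96 ± 0.73 and -2.87 ± 0.44. Wnt10a read 7.76, 8.17 and 8.002 against 2.39, 2.53 and 2.38, with all CD29+ arrays in the low band, and was higher by 5.54 ± 0.51 (adjusted p = 2.0e-08). Wnt11 was higher by 1.80 ± 0.34 and Wnt9a by 1.96 ± 0.29. The remaining calls, Wnt6 and Wnt7a, were lost without array F, at 0.34 (adjusted p = 0.22) and -0.80 (adjusted p = 0.072), and without any 1 of 4 other arrays for each gene (adjusted p up to 0.076 and 0.26). Receptors were mostly higher: 14 of 20 tested were higher and 2 lower, with a median of 2.26. Lgr5 read 9.88, 9.81 and 9.87 against 2.04, 2.13 and 2.08, again from the low band, a difference of 7.77 ± 0.61 (adjusted p = 2.0e-09). Lgr6 differed by 3.76 ± 0.53, Lgr4 by 3.10 ± 0.47, Fzd1 by 4.20 ± 0.30, Fzd7 by 3.28 ± 0.41 and Fzd8 by 3.06 ± 0.34. The receptor genes Ror1 and Ror2, whose products bind Wnt5a, moved in opposite directions, with differences of 6.09 ± 0.58 and -2.94 ± 0.45. Procr, a surface protein described on multipotent mammary cells and on endothelium, read 13.50, 12.38 and 11.55 against 5.51, 6.08 and 5.58, a difference of 6.75 ± 0.68. The ubiquitin ligase genes Znrf3 and Rnf43, which clear Frizzled from the surface, were higher by 2.20 ± 0.37 and 2.32 ± 0.48.

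Notch ligands are bound by Notch receptors on neighbouring cells. The ligand genes Dll1, Jag2 and Jag1 were higher in CD29hi. Dll1 read 11.96, 11.72 and 12.02 against 3.71, 3.70 and 3.76, a difference of 8.18 ± 0.52 (adjusted p = 9.4e-11). Jag2 read 8.89, 8.09 and 8.32 against 1.85, 1.92 and 1.80, a difference of 6.57 ± 0.49 (adjusted p = 8.4e-10), and Jag1 differed by 2.89 ± 0.30. The receptor gene Notch3, which is found in luminal cells and in pericytes, read 5.57, 5.78 and 6.49 against 8.94, 9.06 and 8.88 and was lower at -3.02 ± 0.41 (adjusted p = 3.7e-06). Notch1 overlapped at 10.56, 9.13 and 9.55 against 9.44, 9.72 and 9.22 and was not called (adjusted p = 0.61). Notch2 was higher by 0.90 ± 0.30 (adjusted p = 0.019), a call lost without either array of pool H (adjusted p up to 0.12) and with the actin covariate, at 0.65 (adjusted p = 0.18). Of targets, Hey1 was higher by 2.60 ± 0.53, and Hes1 at 7.68, 7.12 and 7.86 against 9.42, 9.38 and 10.43 was not called (adjusted p = 0.079) except with the pool as a block (adjusted p = 0.00011) and in a fit of the 6 arrays alone, at -2.19 (adjusted p = 0.0036). Over the 16 tested Notch genes 7 were higher and 1 lower, against 21.3% and 25.3% of all genes tested.

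Among the EGF family 5 of 12 genes were higher and 5 lower, where 21.3% and 25.3% of all genes tested were. The receptor genes parted: Egfr read 9.96, 9.63 and 10.03 in CD29hi and 4.62, 4.80 and 3.51 in CD29+ and was higher by 5.56 ± 0.38 (adjusted p = 2.7e-10), and Erbb3 read 8.05, 9.44 and 9.43 against 12.74, 13.004 and 12.64 and was lower at -3.82 ± 0.30 (adjusted p = 1.7e-09). Erbb2 was lower at -1.85 ± 0.42. Ligand genes parted too. Ereg, epiregulin, read 10.24, 10.76 and 11.15 against 3.75, 3.79 and 2.96, higher by 7.22 ± 0.74 (adjusted p = 1.0e-07), and the ErbB3 ligand Nrg1 was higher by 4.59 ± 0.71. Btc, betacellulin, read 2.75, 4.05 and 3.27 against 9.70, 9.19 and 8.57, lower at -5.80 ± 0.56 (adjusted p = 4.5e-08). Nrg4, an ErbB4 ligand, read 2.09, 3.11 and 3.33 against 7.30, 7.46 and 8.08, lower at -4.77 ± 0.26 (adjusted p = 6.4e-12), and Epgn was lower at -2.74 ± 0.44. Erbb4 itself lay near the low band in all 6 arrays, at 3.33, 3.21 and 3.35 against 3.41, 3.28 and 3.35.

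**Figure D3:**
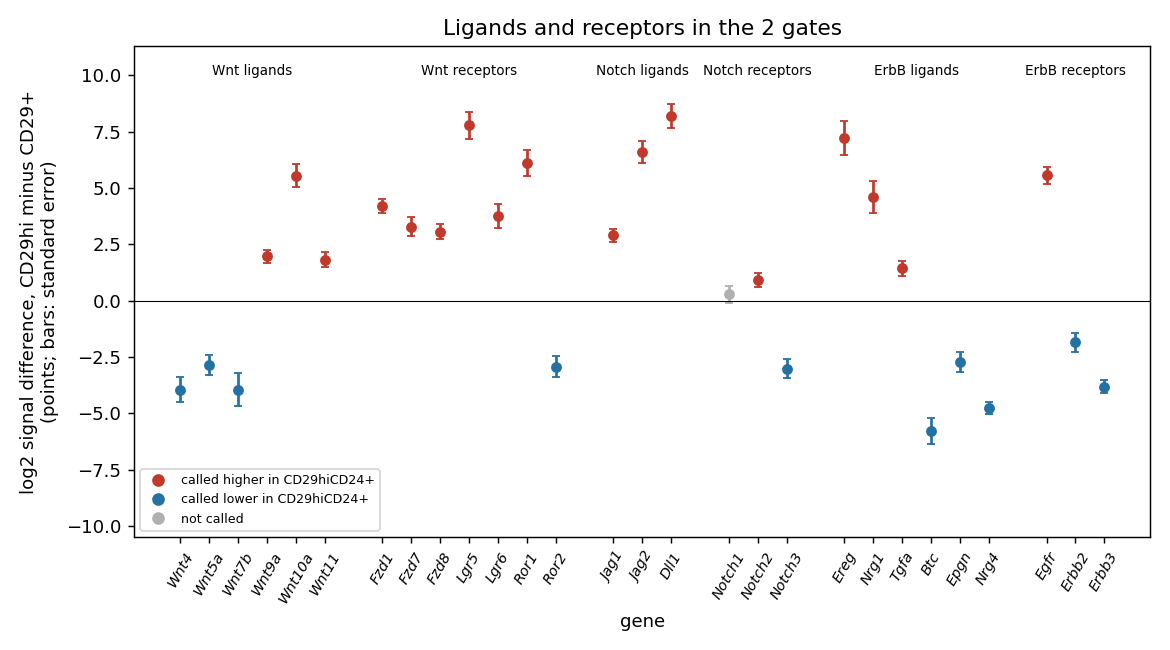
Log2 difference between CD29hi and CD29+ (y axis, points with standard error bars) of Wnt, Notch and ErbB ligand and receptor genes (x axis, by family), coloured by call. Egfr and Erbb3 lie on opposite sides of 0, at 5.56 and -3.82, as do Dll1 and Notch3, at 8.18 and -3.02.

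In the FGF list 7 of 13 genes were higher and 1 lower, where 21.3% and 25.3% of all genes tested were. Fgf1 was higher by 4.06 ± 0.73 and the receptor gene Fgfr3 by 2.78 ± 0.28, while Fgfr2, whose ligands come from the stroma, read 11.45, 11.32 and 11.47 against 12.30, 12.90 and 12.64 and was lower at -1.20 ± 0.18 (adjusted p = 1.2e-05). Of 31 TGF beta and BMP genes 17 were higher and 2 lower, or 6 lower with the pool as a block, with a median of 1.15. Bmp7 read 8.03, 8.24 and 8.41 against 2.77, 2.71 and 2.78, a difference of 5.47 ± 0.42 (adjusted p = 1.6e-09), and Tgfb2 was higher by 2.43 ± 0.35. The activin subunit gene Inhbb was lower at -3.33 ± 0.67, and Fst, the activin trap, read 14.04, 13.92 and 14.14 against 4.95, 4.91 and 4.57 and was higher by 9.23 ± 0.41 (adjusted p = 4.2e-13). The coreceptor gene Tgfbr3 differed by 7.20 ± 0.57, Tgfbr1 by 2.59 ± 0.25 and the decoy receptor gene Bambi by 6.42 ± 0.49. Of the Id genes, several of them BMP targets, Id1 at 4.60 ± 0.60, Id2 at 2.06 ± 0.51 and Id4 at 9.47 ± 0.56 were higher, and Id3 was not called (0.48 ± 0.35). In the IGF list 8 of 10 genes were higher and 1 lower, with a median of 4.77. Igfbp3 read 14.11, 14.14 and 14.24 against 3.12, 2.98 and 3.16, a difference of 11.08 ± 0.67 (adjusted p = 4.0e-11). Igfbp2, Igfbp4 and Igfbp7 differed by 7.06 ± 0.85, 8.08 ± 0.75 and 8.32 ± 0.63. The receptor gene Igf1r was higher by 4.80 ± 0.33 and Igf2r, whose product clears an IGF, was lower at -1.25 ± 0.30. The call of Igfbp5 (2.79 ± 1.03) was lost without array F, at 2.72 (adjusted p = 0.075), and equally without any 1 of the other 5 arrays (adjusted p at least 0.051). That of Igfbp6 was lost without array F, at 2.70 (adjusted p = 0.068). It was also lost without the CD29hi array of pool H or any 1 CD29+ array (adjusted p up to 0.087).

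Among 33 other signal and receptor genes 18 were higher and 2 lower, against 21.3% and 25.3% of all genes tested. Kitl, the ligand of Kit, read 13.80, 13.56 and 13.81 in CD29hi and 11.90, 12.26 and 11.91 in CD29+ and was higher by 1.70 ± 0.48 (adjusted p = 0.0056), with Kit lower at -2.60 ± 0.66. The call of Kitl was lost without pool F, at 1.60 (adjusted p = 0.057), and without pool H, at 1.60 (adjusted p = 0.053). Csf1, the growth factor of macrophages, read 11.77, 12.54 and 12.23 against 7.46, 8.49 and 7.70, a difference of 4.30 ± 0.69 (adjusted p = 2.8e-05). Its receptor gene Csf1r read 11.37, 3.46 and 3.03 against 4.42, 4.65 and 4.40, high in array F among the 6, and was not called (adjusted p = 0.50). Il17b was higher by 8.36 ± 0.66, at 10.78, 9.88 and 10.13 against 1.89, 1.89 and 1.92. The chemokine gene Cxcl12 differed by 6.69 ± 1.16, its scavenger receptor Ackr3 by 7.34 ± 0.37 and the lymphatic growth factor Vegfc by 6.81 ± 0.57. Ptn, pleiotrophin, read 12.44, 13.86 and 14.12 against 15.14, 15.18 and 15.36, and the related Mdk, midkine, read 10.41, 10.32 and 10.44 against 4.83, 4.27 and 4.74. Mdk was higher by 5.77 ± 0.62 (adjusted p = 2.0e-07) and Ptn lower at -1.75 ± 0.54, the latter not called without array F, at -1.24 (adjusted p = 0.087), or with the actin covariate, at -1.16 (adjusted p = 0.17).

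Of 38 axon guidance genes, which also steer epithelial growth, 20 were higher and 4 lower, with 1 lower without array F, 2 without the CD29+ array of pool F or of pool H and 0 with the actin covariate. Slit2 read 10.43, 10.92 and 11.02 in CD29hi and 3.64, 3.66 and 5.93 in CD29+, a difference of 6.38 ± 1.19 (adjusted p = 0.00016), and Slit3 differed by 4.27 ± 0.82. Among Eph receptors Epha4 read 10.58, 9.999 and 10.38 against 3.53, 3.49 and 4.44, a difference of 6.50 ± 0.36 (adjusted p = 1.0e-11), and Ephb1 differed by 6.15 ± 0.47. Sema3c was higher by 7.05 ± 0.57. Plxnb2 was lower at -1.34 ± 0.33, a call lost without pool H, at -1.11 (adjusted p = 0.051). Among matrix proteases and their inhibitors 12 of 28 were higher and 2 lower, against 21.3% and 25.3% of all genes tested. The gelatinase gene Mmp2 read 11.70, 10.81 and 11.49 against 1.68, 1.77 and 1.68, a difference of 9.62 ± 0.52 (adjusted p = 6.1e-12). Adamts1 was higher by 5.77 ± 0.25 and the inhibitor gene Timp3 by 7.07 ± 0.60. The sheddases Adam10 and Adam17, which release EGF family ligands, were the 2 lower members, with differences of -1.65 ± 0.25 and -1.004 ± 0.23. Mmp3, Mmp9 and Mmp13 were not called, at 0.39 ± 1.61, 0.74 ± 1.14 and 0.11 ± 1.23.

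Genes of the respiratory chain were lower or not called. Of 36 tested 20 were lower and 0 higher, with a median of -0.50, and the differences were small. Ndufa9 read 10.28, 10.59 and 10.71 in CD29hi and 11.64, 11.60 and 11.77 in CD29+, a difference of -1.15 ± 0.24 (adjusted p = 0.00047). Ndufb3 read 10.51, 10.49 and 10.54 against 11.61, 11.69 and 11.20, a difference of -0.99 ± 0.15 (adjusted p = 2.0e-05). Sdha, of the succinate dehydrogenase complex, and Atp5j, of the ATP synthase, were lower, with differences of -0.81 ± 0.18 and -0.68 ± 0.13. The count of lower members was 13 without array F, 9 without pool F, 7 with the actin signal as covariate and 25 after quantile normalisation, and 0 members were called higher in each of these. Glycolysis genes were mixed, with 3 of 16 higher and 5 lower, shares near the 21.3% and 25.3% of all genes tested. The glucose transporter gene Slc2a1 was higher by 1.57 ± 0.23 and Pfkp, a phosphofructokinase, by 3.17 ± 0.34. Ldhb read 10.76, 10.77 and 11.33 against 6.23, 5.56 and 6.16, higher by 4.97 ± 0.35 (adjusted p = 4.0e-10). Tpi1, Aldoc and Pkm were lower, with differences of -1.68 ± 0.18, -2.26 ± 0.31 and -1.10 ± 0.23.

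Cell cycle genes showed no common direction: 4 of 25 were higher, 3 lower and 18 not called, with a median of 0.45. The shares called lay under those of all genes in both directions, and without the CD29hi array of pool H, or the CD29+ array of pool G or H, 2 were higher. Mki67 read 5.94, 4.97 and 7.15 against 4.33, 5.73 and 6.07 and overlapped (adjusted p = 0.41). Plk1, Foxm1 and Tyms lay in or near the low band in all 6 arrays, as Foxm1 at 2.45, 2.42 and 2.49 against 2.49, 2.47 and 2.54. The DNA clamp gene Pcna was higher by 1.61 ± 0.24 and Rrm2 by 2.56 ± 0.50, while Mcm2 and Aurka were lower, with differences of -1.91 ± 0.42 and -3.03 ± 0.60. Immediate early genes, which are induced while tissue is dissociated, were split with 8 of 21 higher and 6 lower, or 2 lower with the actin covariate. Over all genes tested 21.3% were higher and 25.3% lower. Fos was bright in both gates, at 14.88, 14.65 and 14.73 against 14.98, 15.13 and 15.12, and was not called (adjusted p = 0.062), though it was with the pool as a block (adjusted p = 0.0035) and in a fit of the 6 arrays alone, at -0.33 (adjusted p = 0.044). Fosl2 was higher by 2.03 ± 0.21 and Dusp1 by 1.495 ± 0.21, while Jun was lower at -1.30 ± 0.35, a call lost with the actin covariate, at -0.78 (adjusted p = 0.12).

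Endothelial markers were mostly higher in CD29hi, and the other marker lists had smaller or mixed counts. Of 14 endothelial markers 11 were higher and 0 lower, with a median of 4.31, and the mean of the list was 6.66 to 9.39 in CD29hi, 3.70 to 3.88 in CD29+ and 5.61 to 5.87 in Lin-. Cdh5, the defining cadherin of endothelium, read 8.97, 6.29 and 6.48 in CD29hi and 2.32, 2.42 and 2.41 in CD29+, a difference of 4.86 ± 0.75 (adjusted p = 2.0e-05). Sox17 read 10.13, 7.14 and 8.05 against 2.26, 2.21 and 2.29, and Plvap read 11.99, 8.86 and 9.90 against 3.45, 3.42 and 3.77. Array F was highest for all 3, and arrays G and H were also above every CD29+ array. Without array F the differences were 4.001 (adjusted p = 0.00023) for Cdh5, 5.34 (adjusted p = 0.00019) for Sox17 and 5.83 (adjusted p = 9.5e-05) for Plvap. The call of Robo4 was lost without array F, at 0.66 (adjusted p = 0.28). Of 6 pericyte markers 3 were higher and 1 lower: Rgs5 was higher by 4.56 ± 1.24, Pdgfrb by 5.05 ± 0.99 and Mcam by 5.81 ± 0.84, while Cspg4 lay in the low band in all 6 arrays. Averaged over its probe sets, Rgs5 was not called, at 1.19 (adjusted p = 0.068). Fibroblast markers had 6 of 15 higher, and the list mean was 5.01 to 6.10 in CD29hi, 3.73 to 3.90 in CD29+ and 7.34 to 9.68 in Lin-. Pi16, Cd248 and Twist2 lay in the low band in both gates, while Pdgfra was higher by 3.66 ± 0.70. Fabp4, shared by adipocytes and capillary endothelium, read 15.06, 14.51 and 14.63 against 5.32, 6.99 and 7.07, a difference of 8.27 ± 1.38 (adjusted p = 4.6e-05). Macrophage markers had 1 of 11 higher, Cd68 at 2.70 ± 0.66, and 6 or 7 of 11 when the CD29hi array of pool G or H was left out. Lyz2 read 10.52, 2.51 and 2.65 in CD29hi and 3.25, 2.80 and 2.83 in CD29+, so that only array F was raised among the 6. C1qa and C1qb, not called at 2.65 ± 1.23 and 3.51 ± 1.65, were called with the pool as a block (adjusted p = 0.044 and 0.021). The mean of the macrophage list was 8.58, 3.23 and 3.05 in CD29hi, so that among the 6 arrays it was raised in array F alone. Lymphocyte markers had 0 of 8 called, and Cd4, Cd8a and Ms4a1 each differed by under 0.3 across the 6 arrays, while Ptprc read 8.69, 2.43 and 3.50 in CD29hi. Of 8 Schwann cell markers 2 were higher, Scn7a, with the largest difference of the list at 10.05, and Sox10, and 1 was lower, Erbb3. Of 7 skeletal muscle markers 1 was higher and 1 lower. These shares lay near or under the 21.3% higher and 25.3% lower among all genes tested. Of 4 adipocyte markers 3 were higher and 1 lower, and the 1 erythroid marker that passed the filter was not called. The part of these cells in the basal, matrix and ligand results was not tested.

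**Figure D4:**
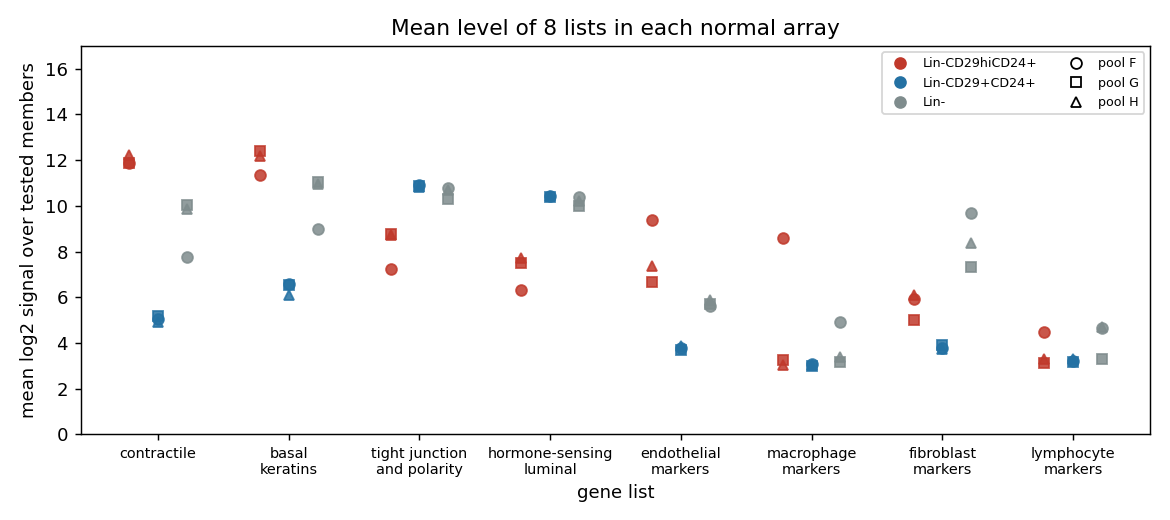
Mean log2 signal over the tested members (y axis) of 8 gene lists (x axis) in the 9 normal arrays, with colour for the population and marker shape for the pool. Contractile genes lie at 11.86 to 12.24 in CD29hi and 4.93 to 5.17 in CD29+, and the macrophage mean of 8.58 in the CD29hi array of pool F stands apart from every other array.

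The Lin- fraction, from which both gates were drawn, lay between them for most called genes. Among the 2871 genes higher in CD29hi its mean was between the 2 gates for 2553 (88.9%) and closer to CD29+ for 2374 (82.7%). Among the 3410 lower genes it was between for 2486 (72.9%), above both for 909 and closer to CD29+ for 3161 (92.7%). Krt14 shows the spread among Lin- arrays, with 9.40, 12.52 and 12.19, and Acta2 with 12.41, 14.42 and 14.11. Pool F was lowest for both. Luminal genes in Lin- were close to CD29+, as Foxa1 at 13.40, 13.13 and 13.54 and Cldn4 at 13.66, 12.42 and 13.60. Lum, a matrix gene of fibroblasts, read 10.73, 8.21 and 10.12 in Lin-, 2.48, 2.53 and 2.50 in CD29+ and 2.59, 2.47 and 3.86 in CD29hi, with every Lin- array above every gated array.

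The same gates were also sorted from tumours of Apc+/1572T mice (n = 5), and there fewer genes differed between the gates. In tumours 304 genes (2.25%) were higher and 261 (1.94%) lower in CD29hi. The test of the difference between the normal and the tumour gate difference called 5665 genes (42%), 2669 (19.8%) with a more positive and 2996 (22.2%) with a more negative value in normal glands. It called all 6 basal keratins, 15 of 16 contractile genes, 13 of 18 basal and 13 of 24 luminal transcription factors, 15 of 23 tight junction and polarity genes and 20 of 25 collagens. Krt14 differed by 0.03 ± 0.35 in tumours against 10.38 ± 0.46 in normal glands (adjusted p = 3.3e-11 for the difference), and Trp63 by 0.17 ± 0.28 against 9.32 ± 0.37 (adjusted p = 8.0e-12). Acta2 kept part of its difference, at 3.80 ± 0.72 in tumours (adjusted p = 0.0050) against 7.80 ± 0.93 in normal glands (adjusted p = 0.0094 for the difference), as did Myl9 at 3.64 ± 0.83 and Cnn1 at 2.73 ± 0.67. Egfr differed by -0.34 ± 0.30 in tumours and Lgr5 by -0.59 ± 0.47. Wnt9a is a gene whose difference was of like size, 2.04 ± 0.23 in tumours and 1.96 ± 0.29 in normal glands, and the test of the difference did not call it (adjusted p = 0.90). For Pgr, at -2.15 ± 0.50 in tumours (adjusted p = 0.020), the difference was not called either (adjusted p = 0.29).

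**Figure D5:**
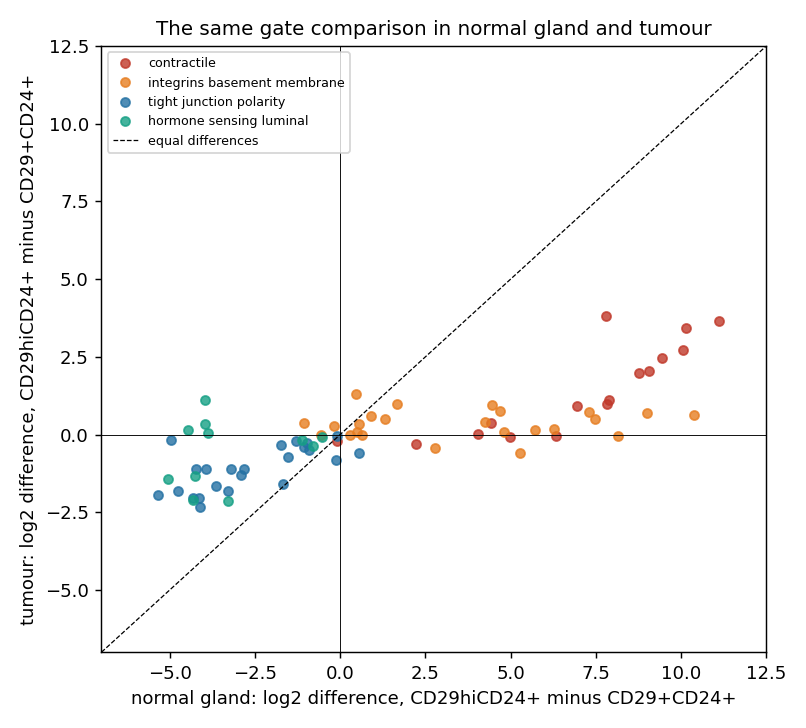
Log2 difference between CD29hi and CD29+ in tumours (y axis, n = 5) against that in normal glands (x axis, n = 3) for the tested genes of 4 lists, with a dashed line where both are equal. Contractile genes, with a median of 7.82 in normal glands and 1.04 in tumours, and tight junction genes, with -2.91 and -1.10, lie nearer to 0 on the tumour axis.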

How the data were processed

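RNA of 24 sorted mouse populations was measured on Affymetrix arrays, and each sample's log2 signal per probe set was used as deposited by the authors. RMA, GCRMA and Partek stand in the submitters' processing notes, with version, role and order not given in the sources used here. Of 45101 probe sets, 34945 carry 1 gene name in the platform annotation, 932 several and 9160 none, with 64 controls. A probe set was kept where at least 3 arrays exceeded 2.83, the 40th percentile of all values (24278 kept), and the probe set of highest mean stood for its gene, which left 13485 of 18193 genes. The number of arrays limits the precision.

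All 24 arrays were fitted in limma 3.58.1 (R 4.3.3) with 6 groups, empirical Bayes moderation with a variance trend and 2-sided Benjamini-Hochberg adjusted p-values, and contrasts for each gate difference and for normal minus tumour. The fit was also run on simulated data with independent noise and small added differences. That setting is simpler than these arrays, so it does not test the results given here. Pool letters link the populations of 1 pool, and after removing group means the CD29hi and CD29+ arrays of pools F, G and H correlated at -0.04, -0.02 and 0.14, so the pool as a block is an alternative. Other alternatives were quantile normalisation, other low-value filters, averaged probe sets, the 6 arrays alone, no variance trend, the actin 3′ minus 5′ signal or leukocyte markers as covariate, and leaving out arrays or pools. Median-centring was chosen after seeing the data. Genes named are members of lists and called genes of large difference whose groups did not overlap. The latter are the 10 largest each way with both gate means above the low band, and ranks 11 to 20 each way. Further named genes are the largest reversals between normal glands and tumours. The last are the 10 genes of highest mean signal among those of near-equal level in both gates. The members and lists were chosen with earlier results of these data known. Promoters are from RefSeq (GRCm38.p6), the first listed for each symbol.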

Additional observations from a re-analysis of the deposited data

Results flagged for a closer look

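Of the 6281 genes called between CD29hi and CD29+ in normal glands and the 304 higher and 261 lower in tumours, 277 were called in both. The sign was the same for 188, and opposite for 46 that were higher and 43 that were lower in normal glands. The test of the difference between both (limma, Benjamini-Hochberg) gave the following values, as normal minus tumour, for the 5 largest each way among those of opposite sign. Krt23, a keratin gene, gave 7.10 (adjusted p = 3.1e-06), Cttnbp2 gave 6.92 (adjusted p = 7.1e-10) and the transcription factor gene Klf12 gave 5.16 (adjusted p = 1.4e-05). Tiam2, an activator of Rac, gave 4.92 (adjusted p = 1.9e-06) and Calml3, a calmodulin-like gene, gave 4.37 (adjusted p = 0.00045). In the other direction Akr1c13 gave -6.16 (adjusted p = 6.6e-06), Anln, which codes for the cytokinesis protein anillin, gave -5.29 (adjusted p = 7.3e-07) and Tmem140 gave -5.27 (adjusted p = 0.00033). Cenps, a kinetochore gene, gave -4.47 (adjusted p = 1.9e-05) and Ramp1, a partner of the calcitonin receptor-like receptor, gave -4.26 (adjusted p = 0.00025). In normal glands the call of Calml3 was lost without the CD29hi array of pool F, at 1.88 (adjusted p = 0.064), or of pool G, at 1.64 (adjusted p = 0.097), and without the CD29+ array of pool G or H (adjusted p = 0.090 for both). The normal call of Tmem140 was lost without the CD29hi array of pool H, at -2.22 (adjusted p = 0.052), without the CD29+ array of pool F, at -2.25 (adjusted p = 0.053), and with the actin covariate, at -2.27 (adjusted p = 0.084). That of Ramp1 was lost with the actin covariate, at -1.95 (adjusted p = 0.060), and without pool F, at -1.86 (adjusted p = 0.091), or pool G, at -1.99 (adjusted p = 0.064).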

How the results depend on the processing

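The counts of higher and lower genes stayed within 1.5 times 2871 and 3410 under each alternative run. They were 3317 and 3965 with the pool as a block, 2706 and 3829 after quantile normalisation, 2676 and 3755 after median-centring, 2520 and 2394 with the actin covariate, and 2598 and 2997 with the leukocyte covariate. Leaving out 1 array gave 2510 to 2814 higher and 2893 to 3186 lower, and leaving out pool F gave 2299 and 2366. Without the CD29hi array of pool F 5460 genes were called, of which 5346 were also called, in the same direction, with it. The test between normal glands and tumours called 5665 genes, 6889 with the block and 4206 without pool F. With the block 7282 genes were called, 6252 with the same sign as without it. Of 605 named genes 39 gained a call with the block and 0 lost it, and it changed no other call among them. With the actin covariate 62 of the 605 lost their call, and without the CD29hi array of pool F 40 did. Averaging probe sets turned the sign of Rps9 to 0.73 (adjusted p = 0.0014), of Notch4 to 1.13, of Ndufb8 to 0.0612 and of Atp5g1 to 0.51, and the cause was not tested. The median over all genes was -0.03 as deposited, -0.09 after quantile normalisation and -0.10 after median-centring. Signal near the low band limits the size of any difference that starts there.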
